A study of Mus musculus with 12 samples.

Results

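10 genes of transforming growth factor beta (TGF-beta) and bone morphogenetic protein (BMP) signalling are described here in cells sorted from mouse fetal liver. They are the ligand gene Tgfb1, the receptor and co-receptor genes Tgfbr1, Tgfbr2, Eng, Acvrl1 and Bmpr2, the SMAD genes Smad4, Smad6 and Smad7, and the target gene Id1. They were taken by name through their Ensembl identifiers, 10 of the 57055 identifiers in the count tables of the study, and all 10 were found in both tables. RNA was measured by bulk sequencing in 12 libraries of 4 groups, with 3 libraries each, from C57BL/6 embryos (strain as labelled for the HSC samples) at stage E14.5. All embryos carried floxed alleles of the Notch ligand gene Jag1. The Cre positive groups also carried a Vav-Cre transgene, in which the Vav promoter drives recombination in blood cells (labels VavCre+Jag1 f/f, genotype Mutant, for HSCs and Jag1ff/VavCre+ for macrophages). The Cre negative groups lacked it (VavCre-Jag1 f/f, called WT in the labels although the alleles were floxed, and Jag1ff/VavCre-). Which cell types of the Cre positive embryos recombined was not measured here. One pair of groups held hematopoietic stem cells (HSCs), gated as live CD45+ Lin- cKit+ Sca1+ CD48- CD150+ cells, and the other pair held CD169+ macrophages. The labels do not say whether libraries came from separate embryos or from pools, so p-values measure only the spread between these libraries, which may be technical.

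TGF-beta and BMP ligands bind pairs of transmembrane kinases on the cell surface. A type II receptor (Tgfbr2 for TGF-beta, Bmpr2 for BMPs) phosphorylates a type I receptor (Tgfbr1, also called ALK5, or Acvrl1, also called ALK1), which then phosphorylates receptor-regulated SMADs that enter the nucleus with the shared partner Smad4. Eng (endoglin) is a co-receptor best known from endothelium, where it works with Acvrl1, and it also marks fetal HSCs. Smad6 and Smad7 are inhibitory SMADs that are themselves induced by the pathway, and Id1, an inhibitor of basic helix-loop-helix transcription factors, is a direct BMP and SMAD target. TGF-beta signalling is known to restrain HSC cycling and to shape macrophage identity.

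Depth and cell content frame every value that follows. Totals ran from 51982064 to 77463770 counted reads in each HSC library. In macrophages, Cre positive libraries held 2602934 to 5366990 reads and Cre negative ones 17230019 to 24658205, so depth did not overlap between the genotypes of that sort. Every member had at least 44 reads in every library. Levels are given in CPM, the reads of a gene scaled to a common TMM library size (TMM is edgeR's trimmed mean of M-values), at which 3 reads equal 0.0385 to 0.0560 CPM in HSC libraries and 0.136 to 1.07 CPM in macrophage libraries. Jag1, the targeted gene, measured 10.5, 0 and 19.5 CPM in the HSC libraries labelled Cre positive and 6.53, 6.87 and 1.16 CPM in Cre negative ones (exact two-sided permutation p = 0.8, n = 3 each), so its level did not follow the labels in HSCs, and the HSC groups are named by their labels. In macrophages it measured 0, 10.6 and 6.79 CPM in Cre positive and 52.6, 21.1 and 26.3 CPM in Cre negative libraries (exact permutation p = 0.1, the smallest that 3 against 3 allow). The HSC markers Hlf and Mecom were read in all HSC libraries and the macrophage markers Siglec1 and Adgre1 in all macrophage libraries. Mecom measured 64.4 to 170 CPM in HSC libraries but also 58.8 to 114 CPM in macrophage libraries. Adgre1 measured 22.3 to 403 CPM in macrophage libraries but also 32.1 to 127 CPM in HSC libraries. Hlf reached at most 24.0 CPM in macrophage libraries and Siglec1 at most 8.61 CPM in HSC libraries. Reads of endothelial marker genes were present in both sorts. All 21 endothelial markers had reads in all 12 libraries, with none of the defining markers Cdh5 and Stab2 at 0. Their summed level was 10336 to 23025 CPM in HSC libraries, where 14 HSC markers summed to 1224 to 2685 CPM, and 11988 to 21931 CPM in macrophage libraries, where 18 macrophage markers summed to 2224 to 8522 CPM. How much of the endothelial sums the HSCs or macrophages themselves supplied was not tested. HSC libraries also held reads of markers of other cell types. There the 18 macrophage markers summed to 2595 to 4115 CPM and 12 hepatoblast markers to 1847 to 3698 CPM. Cre negative macrophage replicate 1 stood apart, with the lowest macrophage sum, 2224 CPM, and the highest stellate and hepatoblast sums, 1815 and 3974 CPM, against at most 408 and 856 CPM in the 5 other macrophage libraries. In bulk samples, fewer cells of a type and less RNA per cell cannot be told apart.

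The HSC comparison addresses whether Vav-Cre with floxed Jag1 went with another level of the TGF-beta and BMP machinery. In the HSC libraries labelled Cre positive, the TGF-beta type II receptor gene Tgfbr2 stood at 0.488 times its Cre negative mean without overlap, and the BMP type II receptor gene Bmpr2 at 3.27 times its Cre negative mean, carried mostly by 1 library. Every member other than Tgfbr2 overlapped between the groups. In edgeR's quasi-likelihood test, with p adjusted by Benjamini-Hochberg over 13962 genes, 0 of the 10 and 0% of all genes passed. At an unadjusted p under 0.05 stood 2 of the 10, against 6.39% of all genes (892), and 1 of 10 did not overlap between groups, against 15.7% of all genes and 9.33% in the lower direction. DESeq2 called 135 genes in HSCs (0.967%), with 0 of the 10 among them. The median log2 fold change of the 10 was -0.13, against -0.00 over all genes tested (Cre positive over Cre negative, as in every fold change here).

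Of the TGF-beta receptors, Tgfbr2 separated the HSC groups and Tgfbr1 did not. Tgfbr2 (chromosome 9, 116084293 to 116175360 of GRCm38, minus strand) measured 35.2, 45.3 and 75.9 CPM in the HSC libraries labelled Cre positive, against 103, 97.7 and 119 CPM in Cre negative HSCs. All 3 values labelled Cre positive lay below all 3 Cre negative values. The log2 fold change was -1.03 with a standard error (SE) of 0.34 (edgeR unadjusted p = 0.0164, adjusted p = 0.689). Tgfbr1 (chromosome 4, 47353222 to 47414931), whose kinase passes the signal on, measured 13.7, 34.0 and 20.5 CPM in libraries labelled Cre positive and 11.8, 12.7 and 16.9 CPM in Cre negative libraries. Its values overlapped and its estimate had the other sign, 0.72 (SE 0.58, edgeR unadjusted p = 0.251). The ligand gene Tgfb1 (chromosome 7, 25687002 to 25705077) lay between 71.6 and 121 CPM in all 6 HSC libraries, with means of 94.6 ± 20.04 CPM in those labelled Cre positive and 106 ± 14.2 CPM in Cre negative ones (SD, n = 3 each).

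Because these partner receptors had estimates of opposite sign and Eng stood among the highest members, the 250 bases before their RefSeq start sites (GRCm38.p6) are shown, with capitals marking the letters searched for. Those were CAGAC, a SMAD-binding element, GGCGCC, a GC-rich BMP-responsive element, and GTGGGAA, the core bound by the Notch effector RBPJ, each on both strands and with no overlap among the matches shown.
Tgfbr2, chr9:116175364-116175613, minus strand: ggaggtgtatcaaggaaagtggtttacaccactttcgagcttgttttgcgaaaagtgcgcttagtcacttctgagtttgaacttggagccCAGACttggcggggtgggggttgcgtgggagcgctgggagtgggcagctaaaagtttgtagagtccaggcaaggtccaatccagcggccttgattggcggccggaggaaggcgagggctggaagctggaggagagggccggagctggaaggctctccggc
Tgfbr1, chr4:47352972-47353221, plus strand: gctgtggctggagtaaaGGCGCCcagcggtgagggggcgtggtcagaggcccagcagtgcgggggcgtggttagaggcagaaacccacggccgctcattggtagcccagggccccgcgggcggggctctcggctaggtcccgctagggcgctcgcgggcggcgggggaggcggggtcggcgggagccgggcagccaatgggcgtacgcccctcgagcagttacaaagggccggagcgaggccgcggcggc
Eng, chr2:32646345-32646594, plus strand: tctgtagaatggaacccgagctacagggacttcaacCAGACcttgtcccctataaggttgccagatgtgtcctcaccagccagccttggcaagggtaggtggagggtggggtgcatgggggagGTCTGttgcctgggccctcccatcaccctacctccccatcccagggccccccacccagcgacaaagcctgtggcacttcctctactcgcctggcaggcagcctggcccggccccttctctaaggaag
The Tgfbr2 window holds 1 CAGAC, which begins 160 bases before the start site. In Eng there are 2 matches, beginning 214 bases before the start site on the plus strand and 127 bases before it on the other, so that the printed strand reads GTCTG there. The Tgfbr1 window holds 1 GGCGCC, 233 bases before the start. Of the 10 members 6 had windows in the reference table (7 windows), and of those 6, CAGAC was found in 3 (Tgfbr2, Eng and another window of Tgfbr1), GGCGCC in 2 (Tgfbr1 and Bmpr2) and GTGGGAA in 1 (Bmpr2). Among all 32851 windows of this length 42.2% hold CAGAC, 9.59% GGCGCC and 5.42% GTGGGAA. A match is a description of letters and says nothing of binding.

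Among the receptors of BMPs and the co-receptor endoglin, Bmpr2 varied most between single HSC libraries. Bmpr2 (chromosome 1, 59763400 to 59879014) measured 26.1, 38.9 and 161 CPM in libraries labelled Cre positive and 31.1, 16.7 and 21.3 CPM in Cre negative ones. The groups overlapped, and Cre positive replicate 3 stood above all other HSC libraries. The log2 fold change was 1.71 (SE 0.69, edgeR unadjusted p = 0.0396, adjusted p = 0.775), and 0.49 without that library (edgeR adjusted p = 0.845, where alternatives spanned 0.339 to 1.000). Eng (chromosome 2, 32646595 to 32682669) measured 367, 294 and 376 CPM in libraries labelled Cre positive and 709, 418 and 326 CPM in Cre negative ones (log2 fold change -0.49, SE 0.30, edgeR unadjusted p = 0.139). Its highest value was that of Cre negative replicate 1, without which the estimate was -0.11. Summed endothelial markers stood at 11366, 10336 and 13278 CPM in HSCs labelled Cre positive and 23025, 14787 and 10854 CPM in Cre negative ones, so Cre negative replicates 1 and 2 were highest in both measures. Of the 21 endothelial markers 5 were lower and 1 was higher without overlap in HSCs labelled Cre positive. Among all genes 9.33% were lower without overlap and 15.7% separated in either direction. The part of endothelial RNA in the Eng values was not tested. Acvrl1 (chromosome 15, 101128522 to 101145336), the type I partner of endoglin, lay between 28.9 and 46.2 CPM with overlapping groups (log2 fold change -0.10, SE 0.37).

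SMAD genes and the target gene overlapped between the HSC groups. Smad4 (chromosome 18, 73639009 to 73703780) was among the least variable, at 175, 125 and 140.5 CPM in libraries labelled Cre positive and 169.8, 137 and 154 CPM in Cre negative ones. The inhibitory Smad6 (chromosome 9, 63953076 to 64022059) measured 128, 112 and 93.9 CPM in libraries labelled Cre positive and 197, 159 and 106 CPM in Cre negative ones (log2 fold change -0.46, SE 0.28, edgeR unadjusted p = 0.139). Its relative Smad7 (chromosome 18, 75367529 to 75395935) lay lower, between 11.7 and 27.2 CPM in all 6 libraries. Id1 (chromosome 2, 152736251 to 152737410) measured 141, 178 and 176 CPM in libraries labelled Cre positive and 240.0, 257 and 118 CPM in Cre negative ones. The lowest and the highest Id1 values were both Cre negative, and the log2 fold change was -0.31 (SE 0.31, edgeR unadjusted p = 0.347).

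**Figure D1:**
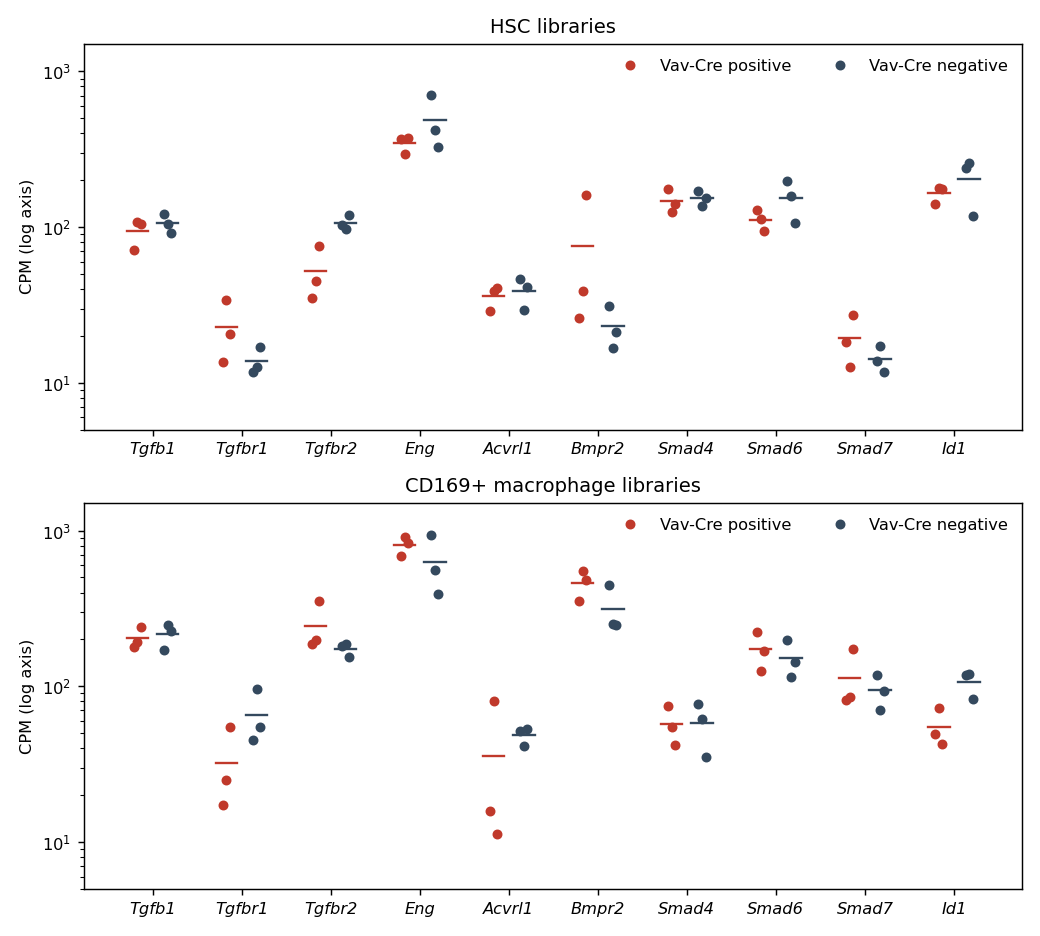
Level of each of the 10 genes in CPM (log axis) in HSC libraries (top) and CD169+ macrophage libraries (bottom). Points are single libraries, 3 per group, with Vav-Cre positive left of Vav-Cre negative, and lines are group means. Tgfbr2 in HSCs and Id1 in macrophages separate the groups, with Cre positive lower, and 1 HSC library labelled Cre positive holds 161 CPM of Bmpr2.

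In CD169+ macrophages the target gene Id1 stood at 0.514 times its Cre negative mean in Cre positive libraries without overlap, and the 9 other genes overlapped. By the same edgeR test over 17806 genes, 0 of the 10 and 0% of all genes passed, and the smallest adjusted p over all genes was 0.225. At an unadjusted p under 0.05 stood 0 of the 10, against 5.42% of all genes (965), and 1 of 10 did not overlap, against 14.1% of all genes and 11.8% in the lower direction. DESeq2 called 63 macrophage genes (0.354%), with 0 of the 10 among them. The median log2 fold change of the 10 was 0.08, against -0.16 over all genes tested, which became -0.00 under upper-quartile scaling and 0.05 on library totals. Depth and the stellate marker sum, described with the wider pathway, did not overlap between these groups either, and their part in the values that follow was not tested.

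Id1 measured 49.3, 72.7 and 42.8 CPM in Cre positive and 118, 119 and 82.7 CPM in Cre negative macrophage libraries. Each Cre positive value lay below each Cre negative one, and the nearest of them were 72.7 and 82.7 CPM. The log2 fold change was -0.96 (SE 0.49, edgeR unadjusted p = 0.0680, adjusted p = 1.000), -0.79 after all libraries were thinned to equal depth, and -0.88 without Cre negative replicate 1. The SMAD genes did not separate the groups. Smad6 measured 223, 126 and 169 CPM in Cre positive and 197, 114 and 144 CPM in Cre negative libraries, and Smad7 measured 81.3, 85.2 and 175 CPM in Cre positive and 119, 70.6 and 94.0 CPM in Cre negative libraries. Smad4 lay between 35.3 and 76.6 CPM, with a log2 fold change of -0.03 (SE 0.59) that turned positive under DESeq2, upper-quartile and library-total scaling.

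Of the receptors in macrophages, Tgfbr2 measured 186, 197 and 351 CPM in Cre positive and 181, 186 and 155 CPM in Cre negative libraries (log2 fold change 0.49, SE 0.37, edgeR unadjusted p = 0.199). Cre positive replicate 3 was the highest, and without it the estimate was 0.08. Tgfbr1 measured 17.3, 25.1 and 54.8 CPM in Cre positive and 45.1, 95.6 and 54.9 CPM in Cre negative libraries (log2 fold change -1.01, SE 0.69, edgeR unadjusted p = 0.160). Cre positive replicate 3 reached into the Cre negative range, and the estimate was -1.68 without it. Bmpr2 measured 353, 551 and 479.6 CPM in Cre positive and 449.7, 249.8 and 247 CPM in Cre negative libraries. Its log2 fold change was 0.55 (SE 0.34, edgeR unadjusted p = 0.126), and 0.89 without Cre negative replicate 1. Eng measured 688, 907 and 831 CPM in Cre positive and 941, 560.2 and 394 CPM in Cre negative libraries (log2 fold change 0.36, SE 0.33, and 0.76 without Cre negative replicate 1). The summed endothelial markers were 16461, 21931 and 15737 CPM in Cre positive and 21152, 11988 and 12424 CPM in Cre negative macrophage libraries, so that Cre negative replicate 1 stood high within its group in both measures, and the part of endothelial RNA was not tested.

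Acvrl1 measured 15.8, 80.1 and 11.3 CPM in Cre positive and 51.96, 41.6 and 53.0 CPM in Cre negative macrophage libraries. The Cre positive libraries therefore lay on both sides of the Cre negative ones, and the log2 fold change of -0.45 (SE 0.80) became -1.87 without Cre positive replicate 2. The ligand gene Tgfb1 was even across libraries, between 172 and 249 CPM, and its log2 fold change of -0.08 (SE 0.35) turned positive under those same 3 scalings. Reads of 2 members could be shared with genes on the other strand, since the library kit does not mark strand: 61 exonic bases of Eng overlap Fpgs and 127 exonic bases of Acvrl1 overlap the antisense gene Gm16031.

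**Figure D2:**
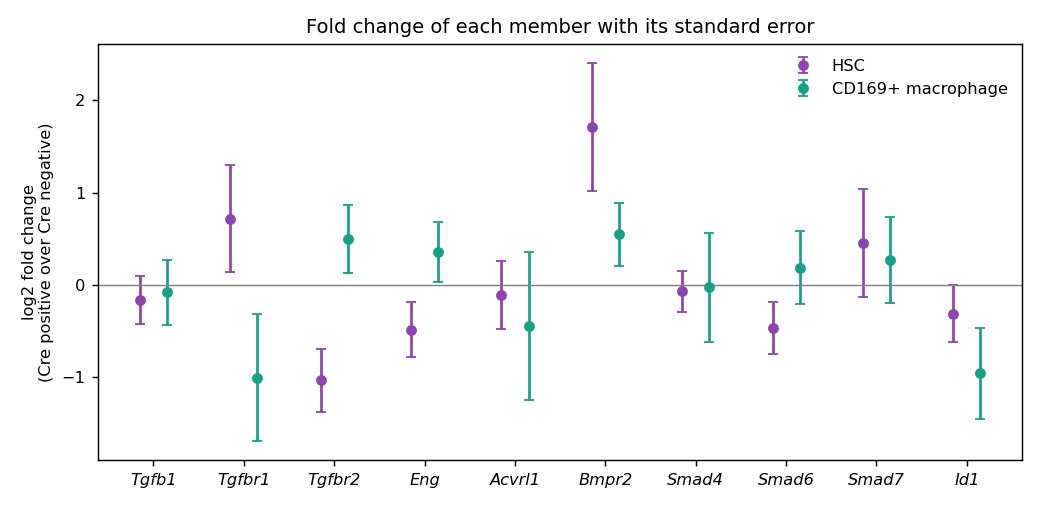
Log2 fold change of Cre positive over Cre negative libraries for each of the 10 genes, in HSCs and in CD169+ macrophages (3 libraries per group). Points are edgeR estimates and bars 1 standard error on either side. Tgfbr2 has an estimate of -1.03 in HSCs and 0.49 in macrophages, and no gene passed the adjusted threshold in either sort.

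Whether the genotype difference itself differed between the sorts was tested as an interaction in a fit of all 12 libraries, as the HSC effect minus the macrophage effect. For Tgfbr2 the estimates had opposite signs, and the interaction was -1.50 on the log2 scale (SE 0.54, edgeR unadjusted p = 0.0115, adjusted p = 0.495). DESeq2 gave -1.62 for it with an adjusted p of 0.102, the lowest of its alternatives, whose highest was 0.835. Tgfbr1 had the reverse arrangement, with an interaction of 1.73 (SE 1.07, edgeR unadjusted p = 0.122). Of Eng the interaction was -0.81 (SE 0.48, edgeR unadjusted p = 0.105), and of Bmpr2 1.20 (SE 0.75, edgeR unadjusted p = 0.126). The value for Bmpr2 was -0.02 without HSC Cre positive replicate 3. Of the 10 genes 0 passed the adjusted threshold in the interaction, against 0.0696% of the 20128 genes tested (14), and 1 stood at an unadjusted p under 0.05, against 8.62% (1736). DESeq2 called 743 genes in this comparison (3.69%), with 0 of the 10 among them.

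Levels of different genes were compared per kilobase of merged exons (CPM per kb). In HSCs Id1 and Eng stood at the top, at 142 ± 17.9 and 85.4 ± 11.1 CPM per kb in libraries labelled Cre positive and 177 ± 65.4 and 120 ± 49.3 CPM per kb in Cre negative ones (SD, n = 3 each). Over the 6 HSC libraries these 2 overlapped each other and lay above Smad6 and Smad4, at 41.4 and 40.4 CPM per kb, which overlapped each other too. Tgfb1 followed at 19.9 CPM per kb, below Smad4 in every library, and then Tgfbr2 at 9.71 and Acvrl1 at 8.80 CPM per kb. The lowest were Smad7, Tgfbr1 and Bmpr2, at 3.72, 2.79 and 2.74 CPM per kb, whose ranges overlapped over all 6 libraries but not within Cre negative HSCs. In Cre negative HSCs Tgfbr2 lay above Acvrl1 in every library, at 13.04 ± 1.38 against 9.12 ± 2.02 CPM per kb. In libraries labelled Cre positive those ranges overlapped, at 6.37 ± 2.59 and 8.48 ± 1.49 CPM per kb.

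In macrophages Eng led, at 200 ± 27.5 CPM per kb in Cre positive and 156 ± 69.2 CPM per kb in Cre negative libraries (SD, n = 3 each). Over all 6 libraries each gene's range overlapped that of the next one down the order Eng, Id1, Smad6, Tgfb1, Tgfbr2, Smad7, Bmpr2, Smad4, Acvrl1 and Tgfbr1. Bmpr2 averaged 21.6 CPM per kb in macrophages and 2.74 CPM per kb in HSCs. That HSC mean joins 4.19 ± 4.15 CPM per kb in libraries labelled Cre positive, where replicate 3 reached 8.96, and 1.28 ± 0.41 CPM per kb in Cre negative ones (SD, n = 3 each). Bmpr2 was the lowest member in Cre negative HSCs and Tgfbr1 in those labelled Cre positive. Smad4 averaged 15.5 CPM per kb in macrophages and 40.4 CPM per kb in HSCs, and Smad7 averaged 23.0 CPM per kb in macrophages and 3.72 CPM per kb in HSCs. These pairs are set side by side with no test, because the tables were made separately. The genes whose centred profile over the 6 libraries lay closest to Id1 in HSCs were Hmmr, Ckap2l and Lnx2, with mean absolute differences of 0.10, 0.12 and 0.12 in log2(CPM + 1) among 11291 genes. Closest to Eng in macrophages were Hmcn1, Prrc2b and Gja1, each at 0.08 among 12685 genes.

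**Figure D3:**
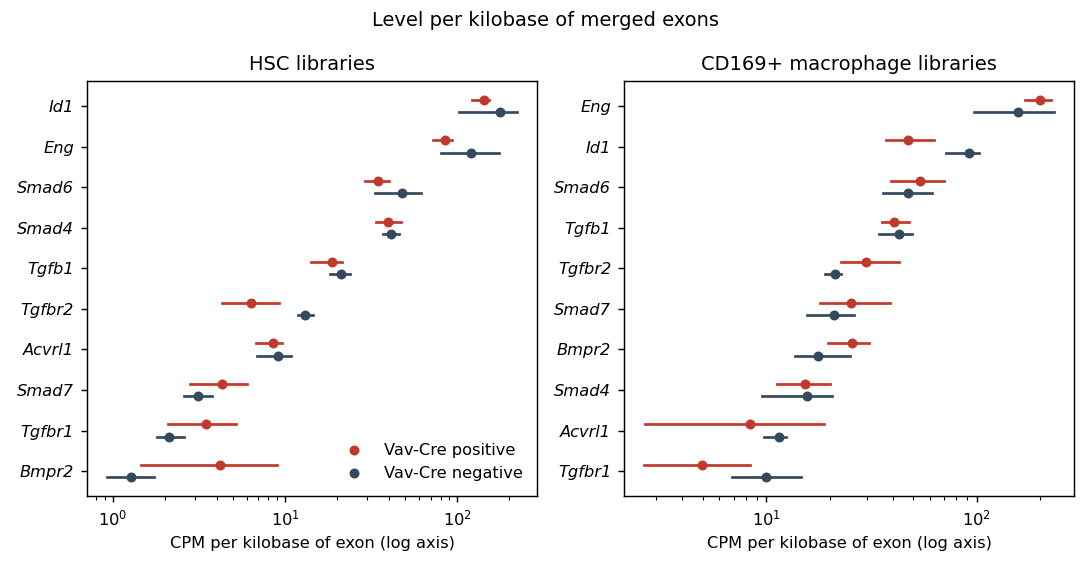
Level of each gene in CPM per kilobase of merged exons (log axis) in HSCs (left) and CD169+ macrophages (right), ordered by the mean over 6 libraries. Points are group means, lines run from the lowest to the highest of 3 libraries, and Cre positive is drawn above Cre negative. Id1 and Eng lead in HSCs, and the lowest group mean is that of Bmpr2 in Cre negative HSCs and of Tgfbr1 in macrophages.

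The wider pathway was read from 77 further genes in 6 lists by role: other ligands, other receptors, other SMADs, genes of latency and activation, inhibitors, and targets. In HSCs 54 of them were tested, 0 passed edgeR's adjusted threshold, 31 had the lower and 23 the higher estimate in libraries labelled Cre positive (50.3% of all genes had the lower), and 4 stood at an unadjusted p under 0.05 (6.39% of all genes). Their median log2 fold change was -0.16, against -0.00 over all genes tested. In macrophages 60 were tested, 0 passed, 36 had the lower and 24 the higher estimate in Cre positive libraries (56.1% of all genes had the lower), and 5 stood at an unadjusted p under 0.05 (5.42% of all genes), with a median of -0.27 against -0.16 over all genes. Without overlap stood 6 lower and 2 higher of the 54 in HSCs, and 9 lower and 1 higher of the 60 in macrophages. The shares of all genes were 9.33% lower and 15.7% in either direction in HSCs, and 11.8% and 14.1% in macrophages. By DESeq2 1 of the pathway genes, Ccn2, was called in HSCs and 0 in macrophages, where 0.967% and 0.354% of all genes were called. In the interaction 0 of 72 tested were called by edgeR and 2 by DESeq2 (3.69% of all genes), Ccn2 and the BMP antagonist gene Grem1. Grem1, named after its values were seen, was near 0, with 0, 8.74 and 0 CPM in Cre positive and 0, 0.747 and 1.38 CPM in Cre negative macrophages. In HSCs it had 0 reads in all libraries but Cre negative replicate 2, at 0.154 CPM.

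Target genes had the lower estimate in 10 of 12 cases in HSCs (median -0.36) and in 6 of 11 in macrophages (median -0.23). Of these targets 3 of 12 in HSCs and 1 of 11 in macrophages were lower without overlap, against 9.33% and 11.8% of all genes. Ccn2, a matricellular target of TGF-beta also called CTGF, measured 35.6, 20.3 and 22.5 CPM in HSC libraries labelled Cre positive and 372, 99.7 and 94.6 CPM in Cre negative ones. The groups did not overlap, and Cre negative replicate 1 was by far the highest. The log2 fold change was -2.85 (SE 0.59, edgeR adjusted p = 0.689) and -1.90 without Cre negative replicate 1, with an adjusted p of 0.000181 by DESeq2 (0.000181 to 1.000 over the alternatives). In macrophages Ccn2 overlapped, with an estimate of 0.86 (SE 0.73), and the interaction was -3.70 (SE 0.95, edgeR adjusted p = 0.237, DESeq2 adjusted p = 0.00739). Across Cre negative HSC libraries, Ccn2 fell in the order of the endothelial sums, 23025, 14787 and 10854 CPM. Among HSC libraries labelled Cre positive, Ccn2 was highest in replicate 1 and the endothelial sum in replicate 3. The part of endothelial RNA in the Ccn2 values was not tested. Klf10, an early TGF-beta response factor, measured 117, 84.2 and 61.8 CPM in HSC libraries labelled Cre positive and 217, 213 and 135 CPM in Cre negative ones, without overlap (edgeR adjusted p = 0.689). In macrophages the leading targets were Id2, a relative of Id1, at 45.7 ± 25.8 CPM in Cre positive and 144 ± 74.0 CPM in Cre negative libraries, and the matrix gene Tgfbi, at 34.8 ± 20.8 CPM in Cre positive and 137 ± 87.7 CPM in Cre negative libraries (SD, n = 3 each, edgeR adjusted p = 0.773 for both). Both genes overlapped between the groups. Cre negative replicate 1 was the lowest of its group in Id2 (60.3 CPM), in Tgfbi (35.9 CPM) and in the sum of macrophage markers, which was 2718, 3058 and 5148 CPM in Cre positive and 2224, 8522 and 6993 CPM in Cre negative libraries. In Cre positive libraries Id2 measured 28.8, 75.3 and 32.9 CPM and Tgfbi 10.8, 47.4 and 46.3 CPM. There replicate 2 was the highest in both genes and replicate 3 in the macrophage sum. The part of macrophage RNA in these values was not tested.

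Among other ligands, 7 of 13 had the higher estimate in HSCs and 5 of 12 in macrophages. Bmp2 averaged 179 ± 58.8 CPM in HSC libraries labelled Cre positive and 347 ± 150.4 CPM in Cre negative ones, and 431 ± 141 CPM in Cre positive and 268 ± 68.8 CPM in Cre negative macrophages (SD, n = 3 each). Its estimates, -0.96 and 0.69, had opposite signs as those of Tgfbr2 did, and the interaction was -1.61 (SE 0.53, edgeR adjusted p = 0.471). In Cre negative HSCs Bmp2 measured 498, 347 and 197 CPM, in the order of the endothelial sums of those libraries, and in Cre negative macrophages replicate 1 was highest in both. The Cre positive groups did not keep that order. In HSCs labelled Cre positive Bmp2 measured 247, 146 and 144 CPM, while replicate 3 had the highest endothelial sum. In Cre positive macrophages it measured 271, 489 and 534 CPM, while replicate 2 had the highest endothelial sum. The part of endothelial RNA in the Bmp2 values was not tested. Inhba, the beta-A subunit of activin and inhibin, measured 31.3, 13.7 and 21.8 CPM in HSC libraries labelled Cre positive and 7.52, 9.25 and 3.25 CPM in Cre negative ones, without overlap (log2 fold change 1.74, SE 0.73, edgeR adjusted p = 0.775). Gdf2, which encodes BMP9, a ligand of Acvrl1 and endoglin, had 0 reads in all 3 Cre positive macrophage libraries and 17.4, 16.1 and 2.63 CPM in Cre negative ones. Set against 3 reads per Cre positive library, the Cre negative mean gave a level at least 16.98-fold lower, and that bound covers only counting error. Cre negative replicate 3, at 2.63 CPM, lay nearest to that floor of 0.512 to 1.07 CPM. Gdf2 did not pass in macrophages (edgeR adjusted p = 0.773, DESeq2 adjusted p = 0.0667). In HSCs Gdf2 measured 28.5, 25.9 and 0.109 CPM in libraries labelled Cre positive and 47.3, 69.2 and 65.6 CPM in Cre negative ones. These HSC groups did not overlap (edgeR adjusted p = 0.919).

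Gdf2 is made by stellate cells of the liver. The summed stellate and mesenchymal markers were 188, 158 and 136 CPM in Cre positive and 1815, 339 and 408 CPM in Cre negative macrophage libraries, without overlap. Of these 14 markers 6 were lower in Cre positive libraries without overlap, against 11.8% of all genes. Reads were found for 10 to 11 of them in Cre positive and 13 to 14 in the deeper Cre negative libraries. The defining markers Pdgfra and Lum were above 0 in all of these libraries and overlapped between the groups. Pdgfra measured 5.05 to 17.8 CPM in Cre positive and 6.64 to 53.9 CPM in Cre negative libraries. Lum measured 2.26 to 13.3 CPM in Cre positive and 7.30 to 12.8 CPM in Cre negative libraries. In HSCs the sums overlapped, at 381 to 723 CPM in libraries labelled Cre positive and 526 to 941 CPM in Cre negative ones. The part of stellate RNA in the Gdf2 values was not tested.

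**Figure D4:**
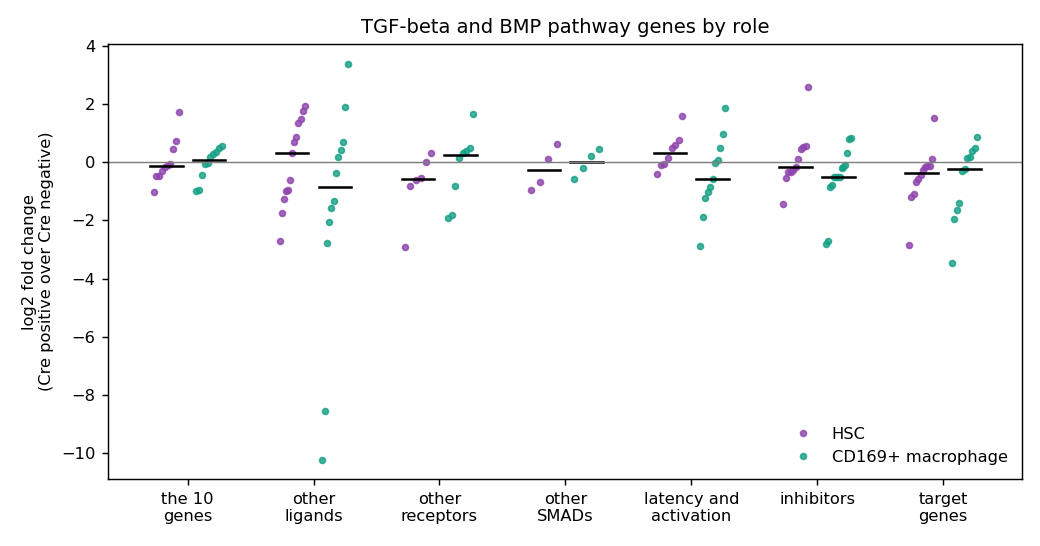
Log2 fold change of Cre positive over Cre negative libraries for every tested gene of the pathway by role, in HSCs and in CD169+ macrophages. Each point is 1 gene and black lines are medians, such as -0.36 for targets in HSCs. The lowest macrophage ligands, Gdf2 and Bmp10, had 0 reads in Cre positive libraries, so their fitted values are no measure of size.

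Receptors, SMADs and regulators outside the 10 genes gave 0 calls by edgeR or DESeq2 in either sort. Of the other receptors 4 of 6 had the lower estimate in HSCs and 3 of 8 in macrophages. The type II activin receptor gene Acvr2b averaged 14.4 ± 9.02 CPM in libraries labelled Cre positive and 25.7 ± 10.2 CPM in Cre negative HSCs, and the type I receptor gene Acvr1 35.7 ± 19.2 CPM in those labelled Cre positive and 52.5 ± 26.9 CPM in Cre negative HSCs (SD, n = 3 each). In macrophages Acvr1b measured 8.02 ± 4.26 CPM in Cre positive and 28.6 ± 13.4 CPM in Cre negative libraries, without overlap (edgeR unadjusted p = 0.157). The Cre positive libraries held 122 Acvr1b reads in total. The co-receptor gene Tgfbr3 measured 349 ± 41.7 CPM in Cre positive and 281 ± 113 CPM in Cre negative macrophage libraries (SD, n = 3 each). Smad1, a BMP-regulated SMAD, measured 142, 35.1 and 75.5 CPM in HSC libraries labelled Cre positive and 181, 155 and 152 CPM in Cre negative ones, without overlap (log2 fold change -0.95, SE 0.46, edgeR adjusted p = 0.812). The TGF-beta-regulated Smad2 averaged 53.6 ± 28.9 CPM in HSCs labelled Cre positive and 86.3 ± 32.3 CPM in Cre negative HSCs. Smad3, also TGF-beta-regulated, averaged 22.1 ± 1.55 CPM in Cre positive and 33.4 ± 18.2 CPM in Cre negative macrophages. In macrophages Smad1 overlapped (log2 fold change 0.46, SE 0.55).

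Genes of latency and activation had the lower estimate in 3 of 8 cases in HSCs and 7 of 11 in macrophages. Itgav, the alpha-v integrin chain that frees latent TGF-beta, averaged 14.9 ± 4.07 CPM in HSC libraries labelled Cre positive and 8.73 ± 3.22 CPM in Cre negative ones. In macrophages it averaged 49.6 ± 19.2 CPM in Cre positive and 116 ± 51.2 CPM in Cre negative libraries (SD, n = 3 each), and the interaction was 2.00 (SE 0.87, edgeR adjusted p = 0.550). Lrrc32, which anchors latent TGF-beta on cells, averaged 136 ± 46.9 CPM in HSCs labelled Cre positive and 179 ± 43.5 CPM in Cre negative HSCs. Ltbp1, which encodes a latent TGF-beta binding protein, averaged 3.11 ± 3.97 CPM in Cre positive and 23.2 ± 13.4 CPM in Cre negative macrophages, without overlap. Inhibitors had the lower estimate in 6 of 11 cases in HSCs and 11 of 14 in macrophages. The ubiquitin ligase gene Smurf2 averaged 39.1 ± 6.69 CPM in HSC libraries labelled Cre positive and 26.7 ± 7.53 CPM in Cre negative ones, without overlap (edgeR unadjusted p = 0.210). Fkbp1a, whose product holds type I receptors inactive, averaged 1339 ± 126 CPM in HSCs labelled Cre positive and 1683 ± 404 CPM in Cre negative HSCs. In macrophages the matrix proteoglycan gene Dcn averaged 2.78 ± 2.97 CPM in Cre positive and 19.7 ± 3.78 CPM in Cre negative libraries without overlap (edgeR unadjusted p = 0.143). The Cre positive libraries held 47 Dcn reads in total. The SMAD co-repressor gene Skil averaged 61.0 ± 17.9 CPM in Cre positive and 104 ± 33.4 CPM in Cre negative macrophage libraries. Dcn also stands in the stellate marker list, whose sum differed between these groups as given above.

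The members differed in how far their estimates moved with the processing. Tgfbr2 in HSCs kept a negative estimate in all 12 alternatives, between -1.41 and -0.82, and Id1 in macrophages in all 13, between -1.24 and -0.77. Bmpr2 in HSCs ranged from 0.49 to 2.11. In macrophages Acvrl1 ranged from -1.87 to -0.10. No alternative brought a member past the adjusted threshold.

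**Figure D5:**
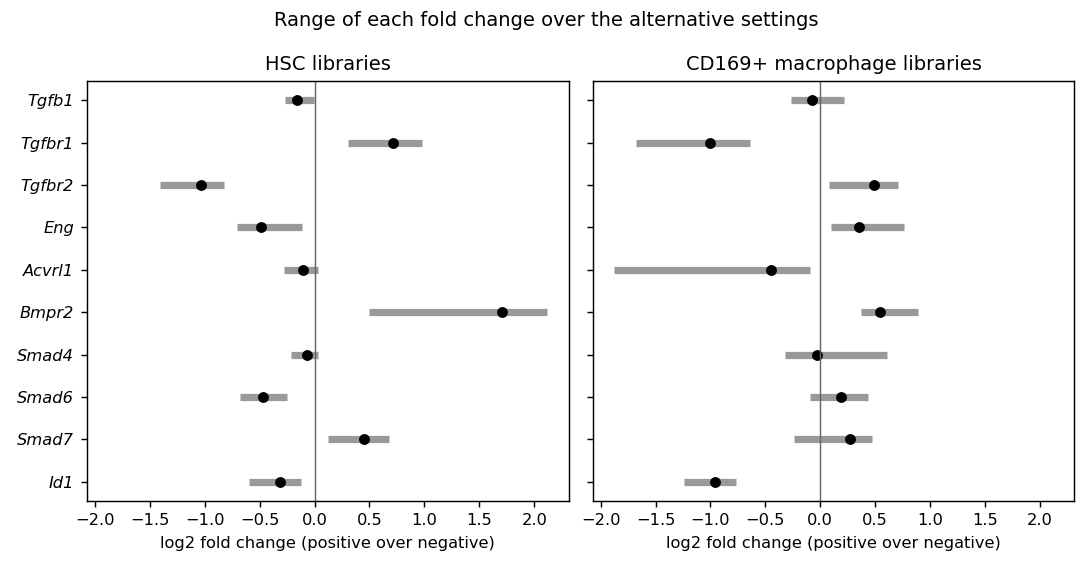
Range of the log2 fold change of each gene over the main setting and its alternatives (grey bars), with the main value as a black point, in HSCs (left) and CD169+ macrophages (right). Tgfbr2 in HSCs stays between -1.41 and -0.82 and Id1 in macrophages between -1.24 and -0.77, while Bmpr2 in HSCs runs from 0.49 to 2.11.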

How the data were processed

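Each sort was prepared as 1 batch (SMART-Seq v4 kit, per the labels' protocols) from 2000 HSCs or from 1000 to 3000 macrophages (1 ng of RNA, 11 amplification cycles). The authors deposited 1 table of gene counts per sort, whole numbers with no normalization. The submitters' processing notes list STAR 2.7.6a, featureCounts and Subread 2.0.1 for HSCs, with builds mm10 and GRCm38, and only mm10 for macrophages. For macrophages the aligner and counter, and for both sorts the handling of strand and of reads with several matches, are not stated in those notes.

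Names, coordinates and merged exon lengths came from GENCODE M21 (GRCm38), promoter sequence from RefSeq (GRCm38.p6). Genes were kept by filterByExpr on genotype. TMM scaling and robust quasi-likelihood fits (edgeR 4.0.16, limma 3.58.1, R 4.3.3) were run per sort, and a gene passed at a Benjamini-Hochberg adjusted p under 0.05 over all genes kept. SE is the size of the log2 fold change divided by the root of F. The interaction used the 32210 identifiers present in both tables. Exact permutations used log2(CPM + 1). Alternatives were DESeq2 1.42.0, other scalings and filters, thinned macrophage libraries, the replicate number as a block and each library left out. The fits were also run on simulated data with the same fixed dispersion for every gene. That dispersion was not taken from these libraries, so the run does not show error rates at their spread. Libraries of a group differed by 56.9 to 844 chi-square units per degree of freedom, so none counted as a duplicate. Bounds cover counting error only.

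Members and gene lists were chosen with earlier results of these data known. Named genes were the 10 members, Jag1, and from each pathway list and sort those past the threshold or else up to 2 with the smallest p (higher group at 5 CPM or more), plus 3 genes of like profile per sort. Bmp10 and Grem1 were named after their values were seen.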

Additional observations from a re-analysis of the deposited data

How the results depend on the processing

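No alternative brought any of the 10 genes past the adjusted threshold in either sort or in the interaction. Of 420 values of the members under alternatives, 387 kept the sign of the reported value and 33 had the opposite sign. All alternatives kept the sign of 8 members in HSCs, 6 in macrophages and 5 in the interaction. In macrophages Smad4 (reported -0.03) was 0.17 by DESeq2, 0.14 with upper-quartile scaling, 0.16 on library totals, 0.0399 with at least 10 counts in 5 libraries, 0.61 after thinning and 0.00690 with the replicate block. Tgfb1 there (reported -0.08) was 0.13 by DESeq2, 0.0751 with upper-quartile scaling, 0.14 on library totals and 0.22 after thinning. The median of all macrophage genes was -0.16 as reported, and -0.00, 0.05 and -0.00 under upper-quartile, library-total and thinned settings.

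With 1 library left out, signs turned for these genes. In HSCs Acvrl1 ran from -0.27 to 0.0312 and Smad4 from -0.22 to 0.0338. In macrophages Tgfb1 ran from -0.27 to 0.0226, Smad4 from -0.32 to 0.24, Smad6 from -0.10 to 0.43, Smad7 from -0.24 to 0.47 and Smad1 from -0.16 to 0.75. In the interaction Acvrl1 ran from -0.0722 to 1.76, Bmpr2 from -0.0205 to 1.61, Smad4 from -0.34 to 0.25, Smad7 from -0.11 to 0.65 and Tgfb1 from -0.18 to 0.0869. The cause was not tested.

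Counts of genes passed moved more. HSCs had 0 by edgeR in all settings and 135 by DESeq2. Macrophages had 0 as reported, 63 by DESeq2, 21 with no filter, 13 with the replicate block, and 1 to 34 with 1 library left out, the highest without Cre positive replicate 3. The interaction had 14 as reported, 743 by DESeq2, 9 with upper-quartile scaling, 8 on library totals, 107 with no filter, 96 with the replicate block, and 6 to 210 with 1 library left out, the lowest without HSC Cre positive replicate 3. Without Cre positive macrophage replicate 1, 2 or 3 it had 108, 210 or 104. In HSCs the replicate block gave 0 genes. Deviations of same-numbered libraries correlated at -0.0005 to 0.0211 in HSCs and 0.00842 to 0.0366 in macrophages, and not every library matched its own number best, so the numbers were not taken to pair libraries. The depth of Cre positive macrophage libraries, at most 5366990 reads, limits what low genes can show there.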
